A study of Drosophila melanogaster with 6 samples.

Results

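The changed splice junctions that span more than 3 kb of intron were examined in whole *Drosophila* larvae of the last instar. A junction is the join between 2 exons seen in spliced reads, and its intron length was taken as the end minus the start minus 1 of the deposited coordinates. Of 1389 junctions in the authors' table of changed splicing, 340 (24.5%) were longer than 3000 bp, and they lay in 203 genes and 225 clusters of overlapping introns. Larvae of the control *w1118* were compared with *ecd1* larvae, homozygous for a recessive temperature-sensitive allele of *ecd*. Growth at 18°C lasted 10 days and was followed by 2 days at 29°C in both genotypes, so the temperature shift was shared. Each sample was the total RNA of 8 pooled larvae, with 3 biological replicates per genotype.

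Ecd is required for the maturation of the U5 snRNP, the spliceosomal particle that holds both exons in place during splicing, and for the stability of its core protein Prp8. Most fly introns are short and are recognised as a unit, whereas long introns are generally recognised through the exons that flank them. Long introns often lie at the 5′ end of a gene, where they join alternative first exons to the rest of the transcript, and they can hold whole genes of their own.

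The measure of change was deltaPSI, the share of a cluster's spliced reads that use a junction in *ecd1* minus that share in *w1118*. LeafCutter gives 1 adjusted p-value to each cluster, and the table holds only junctions that changed by more than 0.1 in either direction at an adjusted p below 0.05. The clusters counted here were rebuilt by joining changed junctions that overlap on the same strand and have the same adjusted p. They can differ from those of LeafCutter. The junctions were thus selected on deltaPSI, on its p-value and on length, and no value per sample was at hand for a junction, so deltaPSI is given below as a description with no test and no replicate error. Junctions of 1 cluster share their reads and are not independent. The genotypes also differed in the insert size of their libraries, which averaged 162 ± 1.37 bases (SD, n = 3) in *w1118* and 139 ± 0.503 bases (SD, n = 3) in *ecd1*, with no overlap, and the part of this difference in the junction values was not tested. The share of reads on 1 strand was 0.50 in every sample, so reads of genes that overlap on opposite strands cannot be told apart.

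Long junctions were about as often higher as lower. Their deltaPSI was higher in *ecd1* for 177 (52.1%) and lower for 163, beside 520 (49.6%) higher and 529 lower among the 1049 changed junctions of up to 3 kb. A near-even split is partly built in, because the shares of a cluster sum to 1, so nothing is read from it. With 1 junction per gene, the one with the largest change, 61.1% of 167 genes were higher, after 36 genes with tied values were left out. This choice often picks a skip junction over its inclusion junctions. The same share was not counted for the shorter junctions, so nothing is read from it. The median absolute deltaPSI was 0.158 (quartiles 0.121 and 0.220), against 0.159 for the shorter junctions. A change of more than 0.2 was found for 112 long junctions (32.9%) and for 326 shorter ones (31.1%), and a change of more than 0.5 for 9 and 36. By length class, the median absolute deltaPSI was 0.162 for introns of 3 to 5 kb, 0.146 for 5 to 10 kb, 0.158 for 10 to 20 kb and 0.171 for those over 20 kb. The classes held 122, 96, 74 and 48 junctions, of which 48.4%, 56.3%, 48.6% and 58.3% were higher in *ecd1*. Introns of up to 100 bp had the lowest share of higher values among the length classes, 34.2% of 193.

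**Figure D1:**
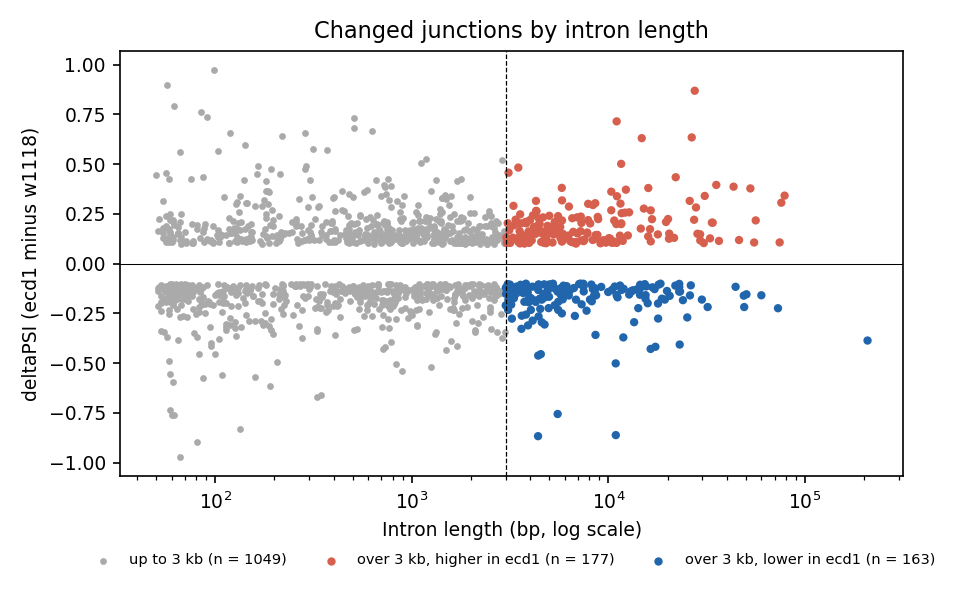
deltaPSI (*ecd1* minus *w1118*) against intron length in bp on a log axis for every junction in the authors' table, 1 point per junction, with the limit of 3000 bp as a dashed line. The 177 higher and 163 lower long junctions run from −0.867 to 0.868, and the empty band between −0.1 and 0.1 is the limit used to make the table.

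Intron lengths ran from 3007 to 208133 bp with a median of 6794 bp. The junctions just inside the limit were those of *vir-1* (3007 bp, deltaPSI −0.210), *SERCA*, the calcium pump of the sarcoplasmic reticulum (3010 bp, −0.121), and *CG33941* (3019 bp, −0.152). Just outside it were junctions of *CG42390* (2973 bp, −0.345) and *CDase* (2972 bp, −0.203). The host genes were themselves long, with a median span of 20570 bp, compared with 6853 bp for the 450 genes that held only shorter changed junctions and 2162.5 bp for all protein-coding genes. Span is not independent of the rule, because an intron within a gene cannot exceed it. The shortest span, 581 bp, was that of *CG40472*, whose junction ran outside the gene.

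Most of these junctions were known introns, and many lay at the start of a gene. With the coordinates read as exon ends on dm6, 303 of 340 (89.1%) equalled an intron of the annotation, close to the 938 of 1049 (89.4%) among shorter junctions. Of the others, 15 joined known sites in a new combination, 8 had only a known 3′ splice site, 7 only a known 5′ splice site and 7 neither. Among the 303 annotated introns, 154 (50.8%) were the first intron of every transcript that holds them and 161 (53.1%) lay in the 5′ UTR, while 133 (43.9%) lay between coding exons. The first-intron share was 43.8% for shorter changed introns and 42.4% for all 6876 annotated introns over 3 kb. The 5′ UTR share was 33.2% and 39.9% in the same sets, and 13.3% for all annotated introns of up to 3 kb. Introns over 3 kb made up 11.4% of the 60508 annotated introns, against 24.5% of the changed junctions. These shares are not corrected for read depth or for the number of alternatives a gene has.

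**Figure D2:**
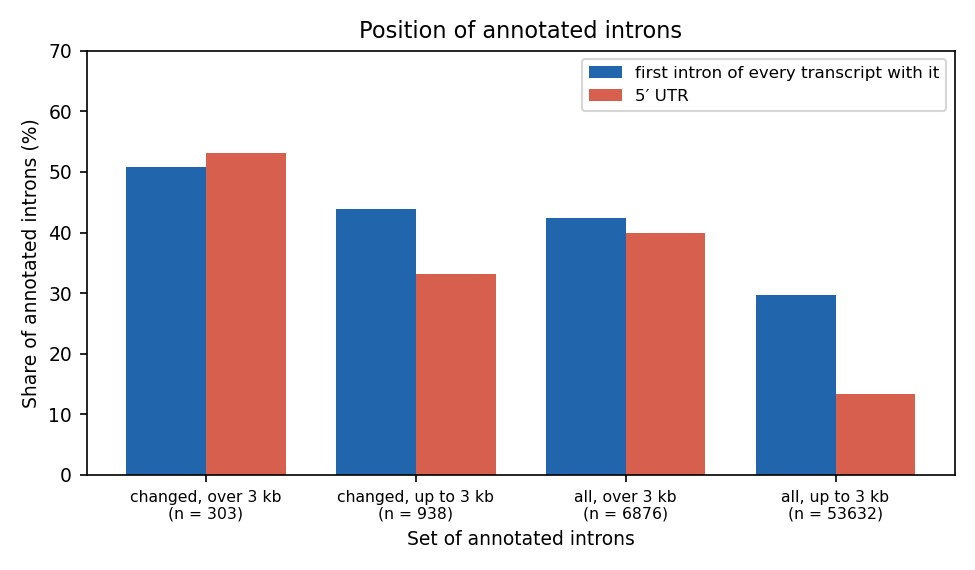
Share in percent of annotated introns that are the first intron of every transcript holding them (blue) and that lie in the 5′ UTR (red), for changed introns over and up to 3 kb and for all annotated introns of the same lengths. Changed introns over 3 kb have the highest bars, 50.8% and 53.1%.

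The long junctions passed over other sequence of their own gene and of other genes. At least 1 annotated exon of the host gene lay inside 232 of them (68.2%), 130 of 177 among the higher and 102 of 163 among the lower ones. At least 1 other gene lay inside 116 (34.1%) and a protein-coding gene inside 45 (13.2%), compared with 41 and 9 of the 1049 shorter junctions. Among the shorter junctions 310 (29.6%) held an exon of the host gene. A longer intron has more room for exons and genes, so these differences follow in part from the rule on length and nothing is read from them.

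The largest changes over long introns were in *Gprk2*, *Adar* and *axo*. In *Gprk2*, which encodes a kinase of G protein-coupled receptors, the junction of 27502 bp on 3R from 31405956 to 31433459 had a deltaPSI of 0.868. It skips a 48-base exon of the UTR at 31410354 to 31410401, and the junctions on either side of that exon, of 4397 and 23057 bp, had values of −0.462 and −0.406 (adjusted p of the cluster 2.5e-08, LeafCutter). All 3 are over 3 kb. *Adar*, the enzyme that edits adenosine to inosine in RNA, showed the opposite. Its skip junction of 4389 bp on X, from 1774222 to 1778612, had the lowest value of all long junctions, −0.867, and the junctions of 1476 and 2873 bp that include the 40-base exon at 1775699 to 1775738 had 0.345 and 0.522.

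In *axo*, which encodes axotactin, a secreted protein of glia, 3 junctions shared a 3′ splice site at 4675947 on 3L. The junction of 10911 bp had a deltaPSI of −0.861, and that of 11020 bp, whose 5′ splice site lies 109 bases further upstream and is annotated, had 0.715. The 5′ splice site of the lower junction is not annotated. The remaining junction, of 5270 bp, had 0.147. *CG30015* was of the same kind, with 2 introns of 10898 and 11615 bp in its 5′ UTR at −0.501 and 0.501 that shared a 3′ splice site and whose 5′ splice sites were 717 bases apart.

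*mwh*, which restricts wing cells to a single hair, held 5 long junctions, and the splice sites of none of them were annotated. A junction of 5520 bp had −0.755 and one of 14782 bp had 0.630, with 38 unannotated bases between them, and the junction of 20340 bp that spans both had 0.125. A further cluster had −0.232 (3091 bp) and −0.192 (5558 bp), with 0.424 for a shorter junction (1788 bp). The other highest values were in *sfl* (0.634), *CG42390* (0.482), *SppL* (0.457), *NK7.1* (0.434), *CG40178* (0.395) and *app* (0.386). The other lowest were in *bol* (−0.455 and −0.428), *CG18675* (−0.418) and *metro* (−0.386).

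A long skip junction stood in the table with both of its inclusion junctions in 22 structures of 20 genes, and the skip junction was higher in *ecd1* in 20 of them. There were 21 different skip junctions, as that of *unc-13* counts more than once. In 15 structures it was higher while both inclusion junctions were lower, and in 1, *Adar*, the reverse. For skip junctions of up to 3 kb there were also 22 structures, 15 with the skip junction higher, 14 of them with both inclusion junctions lower, and 5 with the reverse. The difference between the lengths was not tested.

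In 15 of the 22 long structures the skipped sequence was a single annotated exon, with a median of 49 bases and a range of 20 to 831. The skip junction was higher and both inclusion junctions were lower in 13, with skip values from 0.118 to 0.868 and a median of 0.340. As above, the opposite signs are largely built in. Of these 15 exons, 10 lay in a UTR, 3 were coding and 2 were partly coding, and 8 were of at most 60 bases. *CG42663* was mixed, with 0.147 for the skip junction and 0.223 and −0.371 for the others.

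**Figure D3:**
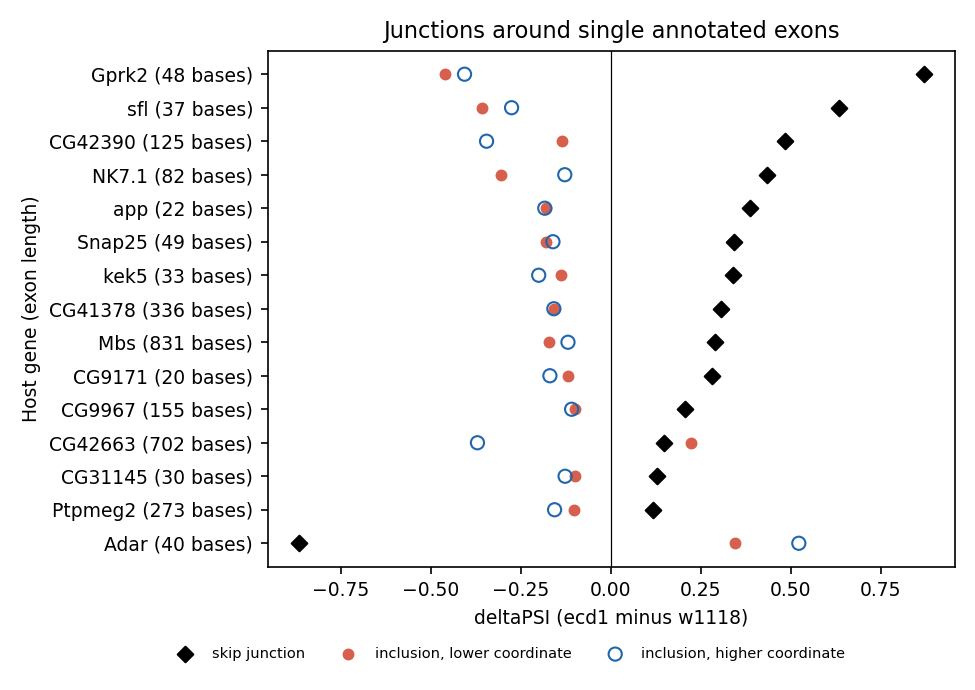
deltaPSI of the skip junction (black diamonds) and of the inclusion junctions at the lower (red) and higher (open blue) coordinate for the 15 single annotated exons, with the exon length in bases beside the host gene. The skip junction lies to the right of 0 and both inclusion junctions to the left in 13, *CG42663* has inclusion junctions on both sides, and *Adar* is reversed.

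Very short exons between long introns recurred in this set. Besides the exon of *Gprk2* and the unannotated 38 bases of *mwh*, exons of at most 60 bases between introns over 3 kb were found in 6 genes. In *sfl*, which encodes the N-deacetylase and N-sulfotransferase of heparan sulfate, a 37-base UTR exon lies between introns of 8601 and 17910 bp, whose junctions had −0.358 and −0.276. In *app*, a palmitoyltransferase that acts in Fat signalling, the exon has 22 bases between 19370 and 23946 bp (−0.181 and −0.184). In *CG9171* it has 20 bases (−0.119 and −0.169, skip 0.282), and in *CG31145* 30 bases (−0.101 and −0.127, skip 0.127). In *kek5*, a leucine-rich repeat transmembrane protein, it has 33 bases (−0.140 and −0.200, skip 0.340).

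*Snap25*, a SNARE of synaptic vesicle fusion, held the only coding exon of this size. Its 49 bases, on 3L from 24161131 to 24161179, are not a multiple of 3 and lie between introns of 29893 and 48841 bp. Their junctions had −0.181 and −0.161, and the skip junction of 78783 bp had 0.342 and joins known sites that no annotated intron joins. The other coding exons were larger and multiples of 3, with 336 bases in *CG41378* (skip junction of 75797 bp, 0.306) and 831 bases in *Mbs*, the myosin-binding subunit of myosin phosphatase (3290 bp, 0.290).

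Of the remaining single exons, that of *CG42390* had 125 bases, that of *NK7.1*, a homeobox gene, 82, that of *CG9967* 155 (skip 0.206) and that of *Ptpmeg2*, a tyrosine phosphatase, 273 (skip 0.118). In the other structures the sequence between the inclusion junctions was not 1 annotated exon. *SppL*, a signal peptide peptidase-like protease, had 0.457 for the skip junction and −0.252 and −0.205 for the others, and *CG40178* had 0.267, −0.140 and −0.128. In *unc-13*, which primes synaptic vesicles, and in *IP3K2*, which phosphorylates inositol trisphosphate, the skip values were 0.202 and 0.151, and each structure had 1 inclusion junction higher and 1 lower. The inclusion junctions of *IP3K2* lie 19716 bases apart.

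There were 150 clusters with just 2 changed junctions of which at least 1 was long. Their values had opposite signs in all 150, as in all 326 such clusters with both junctions of up to 3 kb. The shares of a cluster sum to 1 and both values had to pass 0.1, so this is largely fixed by the rule and nothing is read from it. The values did not always balance, as in *CG40178* (0.395 and −0.126) and *Syt1*, a calcium sensor of synaptic vesicle release (0.158 and −0.386). The longer junction was higher in 76 and the shorter in 74. In the 326 clusters of shorter junctions the longer was higher in 208 and the shorter in 118. The 2 junctions led from alternative first exons in 34 clusters (the longer higher in 19) and from alternative 5′ splice sites of 1 exon in 22. They led to alternative 3′ splice sites of 1 exon in 5 and to alternative last exons in 6. Among the clusters of none of these kinds, the longer junction spanned an annotated exon in 69. Pairs from alternative first or last exons can also span an exon, so 69 is not a count of all that do. Among all 225 clusters, 42 held 1 changed junction, 29 held 3 and 4 held 4.

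**Figure D4:**
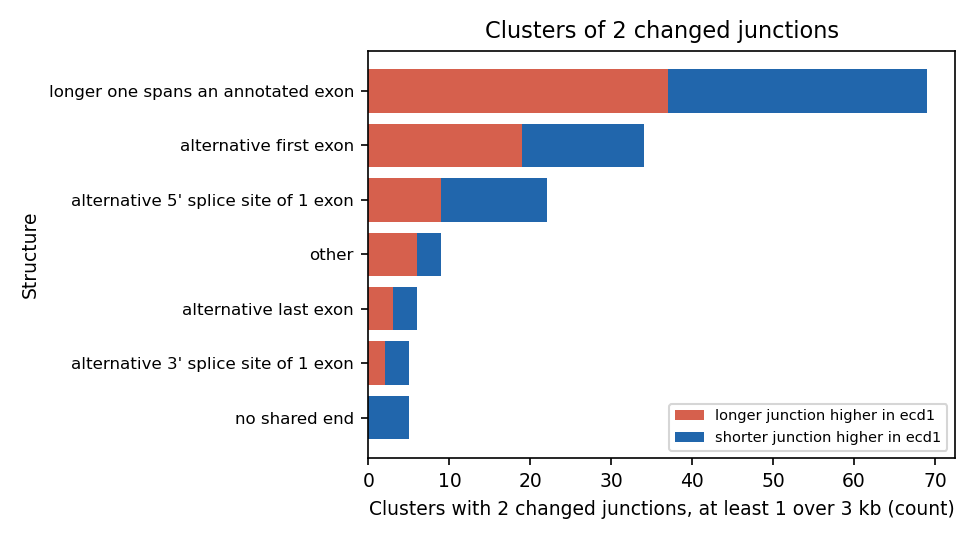
Number of clusters with 2 changed junctions and at least 1 over 3 kb, by structure, split by whether the longer (red) or the shorter (blue) junction is higher in *ecd1*. The 2 colours come to 76 and 74 clusters, and the 5 pairs with no shared end are all blue. The class whose longer junction spans an annotated exon holds only pairs outside the first-exon, last-exon and splice-site classes.

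*bol*, an RNA-binding protein of meiotic entry in the male germ line, held changed junctions in 2 clusters. At its 3′ side the junction of 4534 bp to one last exon had −0.455 and that of 186 bp to the other had 0.365. In its 5′ UTR the junction of 16409 bp had −0.428 while those of 11679 and 10128 bp, with the same 3′ splice site, had 0.253 and 0.117. The level of *bol* was 2624, 3260 and 4134 normalized counts in *w1118* and 2537, 2441 and 2821 in *ecd1* (adjusted p = 0.167, limma), and 0.0274 without *w1118* replicate 1. Beside this, 14 of 17 tested markers of the male germ line were lower in *ecd1* and none was higher, with a median log2 fold change of −1.90 (10 to 16 were lower with 1 library left out). Over all 12930 genes tested, 16.0% were higher and 19.1% lower. *bol* is itself on that list. Their summed level was 14451 to 21169 normalized counts in *w1118* and 5264 to 8064 in *ecd1*. Their part in the junctions of *bol* was not tested, and in whole larvae fewer cells of a type and less RNA per cell cannot be told apart. No sex is given for the pooled larvae, so the share of males in each pool is not known.

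In *sgg*, the fly GSK3 kinase, the junction from a distant first exon (12276 bp) had 0.371 and that from a near one (278 bp) −0.371. *CG18675* had −0.418 for an intron of 17349 bp that holds 4 protein-coding genes, and 0.418 for an intron of 305 bp with the same 3′ splice site. *toc*, a microtubule-associated protein, held 5 long junctions in 3 clusters, among them a pair at 0.276 (15153 bp) and −0.276 (3231 bp).

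The junctions of 2 phosphodiesterase genes were among the 5 longest. *Pde1c*, which hydrolyses cyclic nucleotides under the control of calcium and calmodulin, used the intron of 72912 bp less (−0.224) and that of 20117 bp more (0.224), and the longer one holds 9 protein-coding genes. *dnc*, the cAMP phosphodiesterase known from learning mutants, had 0.107 for a coding intron of 74355 bp. The longest junction of all was listed under *metro*, a scaffold protein of the neuromuscular synapse. It ran over 208133 bp on 2R with only its 5′ splice site annotated, reached beyond the gene and passed 22 other genes, 12 of them protein-coding. Its value was −0.386, and an annotated coding intron of 734 bp from the same 5′ splice site had 0.386.

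Not every junction belonged to the gene it was listed under. In 9 cases the annotated intron was that of another gene, as for *orb2*, whose junction of 11057 bp (0.338) is an intron of *CG43783*, *raptor* (−0.250, an intron of *Mipp2*) and *CG30338* (0.105, an intron of *CG1902*). In 8 cases the junction ran outside the listed gene, including *metro* and *CG40472*, where 49082 bp with neither site annotated had −0.218. In 12 cases 1 or both applied.

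The levels of the host genes were compared to see what else changed at these loci. Of the 203 genes, 201 averaged at least 10 normalized counts and were tested with limma, where the log2 fold change is that of normalized count + 1 in *ecd1* over *w1118*. At an adjusted p below 0.05, 38 were higher (18.9%) and 27 lower (13.4%) in *ecd1*, and 136 did not pass. Over all 12930 genes tested, 16.0% were higher and 19.1% lower. The hosts were reached through the same contrast, so nothing is read from these shares. The median log2 fold change of the hosts was 0.06, against 0.01 for all genes. The counts leaned on single libraries, with 16 higher and 12 lower hosts without *ecd1* replicate 2 and 17 lower without *w1118* replicate 3. This was not particular to the hosts. Over all genes the calls fell from 4538 to 2367 without *ecd1* replicate 2 and to 2897 without *w1118* replicate 3.

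*CG7720* had the highest log2 fold change of the hosts tested and also held the cluster with the lowest p of all long junctions (1.1e-19). Its normalized count was 5364, 6077 and 6863 in *w1118* and 39484, 66023 and 48433 in *ecd1*, so that every *ecd1* sample lay above every *w1118* sample (log2 fold change 3.05 ± 0.20 (SE), adjusted p = 0.00131, limma). Junctions from its nearer 5′ splice site, of 10346 and 10343 bp, had 0.361 and 0.268. Those from the farther one, of 22937 and 22934 bp, had −0.117 and −0.102. A changed junction of this gene below the limit, of 2890 bp, had −0.375, the largest change listed for the gene. Each pair of long junctions ends at 3′ splice sites 3 bases apart.

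*unc-13* had 3423, 3737 and 4048 normalized counts in *w1118* and 7741, 9669 and 7479 in *ecd1* (log2 fold change 1.14 ± 0.13 (SE), adjusted p = 0.00340, limma). *CG17574* (1.32), *CG33158* (1.21) and *CG34396* (1.01) also rose, with no overlap between the genotypes. In *CG17574* the junction of 11521 bp had 0.301 and that of 18714 bp −0.176.

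*Snap25* fell, with 483, 901 and 719 normalized counts in *w1118* and 282, 174 and 240 in *ecd1* (log2 fold change −1.57 ± 0.28 (SE), adjusted p = 0.00812, limma). Every *w1118* sample was above every *ecd1* sample. Of the 14 tested neuron markers it was the 1 that fell, while 3 rose, and none of them passed when any library other than *w1118* replicate 1 was left out. The markers summed to 23366 to 23652 normalized counts in *w1118* and 22832 to 25150 in *ecd1*.

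*CG32698*, the carbonic anhydrase-related protein B, had the lowest log2 fold change of the hosts tested, −2.65 ± 0.38 (SE, adjusted p = 0.00514, limma). Its level was 6202, 2824 and 2510 normalized counts in *w1118* and 743, 400 and 601 in *ecd1*, and replicate 1 stands above the other *w1118* samples. Its introns of 28388 and 23158 bp, both first introns in the 5′ UTR, had 0.150 and −0.140. *CG18675*, *CG5973* and *CG30338* also fell, with log2 fold changes of −2.33, −1.72 and −1.52 and no overlap. The call of *CG18675* was lost without *w1118* replicate 3 (adjusted p = 0.0521, limma) and without *ecd1* replicate 2 (0.0599).

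**Figure D5:**
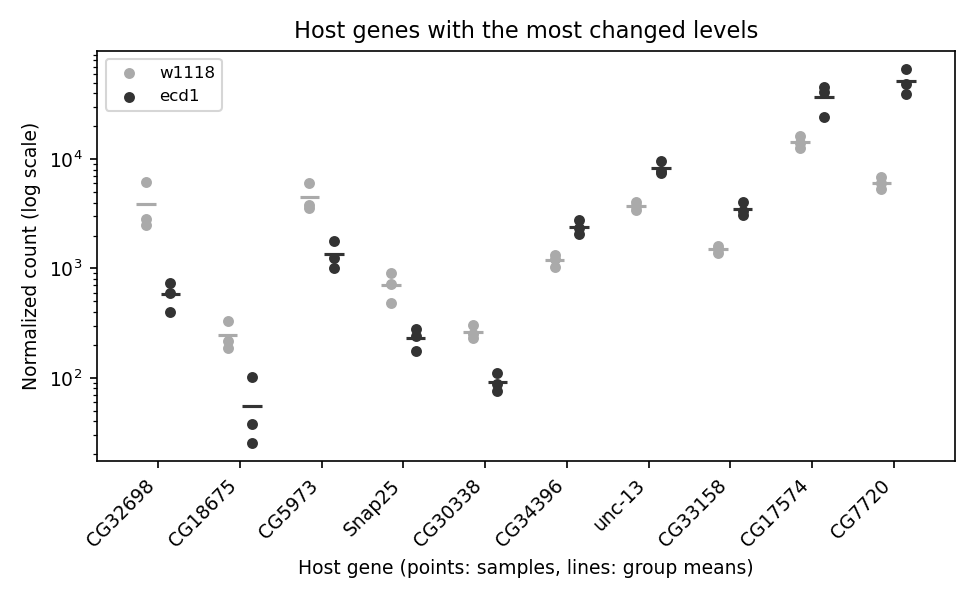
Normalized counts on a log axis of the 5 host genes with the lowest and the 5 with the highest log2 fold change among those that passed the test with a mean of at least 50, for 3 *w1118* (grey) and 3 *ecd1* (black) samples, with lines at the group means. In none of the 10 genes do the genotypes overlap, which is largely fixed by the choice of called hosts with extreme fold changes.

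Several hosts of the largest junction changes did not pass the test for a changed level. *Gprk2* had 4161 to 4362 normalized counts in *w1118* and 3460 to 3989 in *ecd1* (log2 fold change −0.23 ± 0.09 (SE), adjusted p = 0.0963, limma). *Adar* had 2012 to 2077 and 2150 to 2616 (0.21 ± 0.10, adjusted p = 0.150, limma), and *axo* had 5135 to 5841 and 4222 to 4889 (−0.24 ± 0.10, adjusted p = 0.104, limma). None of the 3 passed the test, although their samples did not overlap. For *sfl* the samples overlapped, at 1953 to 2018 and 1919 to 2240 normalized counts (0.05 ± 0.10, adjusted p = 0.706, limma). *app* had 4610 to 4677 normalized counts in *w1118* and 3538 to 3838 in *ecd1* (−0.34 ± 0.08, adjusted p = 0.0194, limma), a call that was lost without any 1 of *w1118* replicates 2 and 3 and *ecd1* replicates 2 and 3 (adjusted p up to 0.0820).

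Hosts and other genes were described together in 11 lists by function, and most of the genes in these lists were not hosts. The list of Y-linked fertility genes held no host. Over hosts and other members together, 61 calls were higher and 41 lower in *ecd1*. A gene on several lists, such as *mbl*, counts in each, and nothing is read from these totals. The lists were chosen with the hosts known, so nothing is read from the number of hosts in each, and the calls of each list stand beside 16.0% higher and 19.1% lower of all 12930 genes tested. Leaving out *w1118* replicate 2 or 3 brought the 61 down to 30 or 34, and leaving out *ecd1* replicate 2 or 3 to 18 or 31. The 41 came down to 17 when *ecd1* replicate 2 was left out. Over all genes the 4538 calls also came down, to 3354 or 2897 without *w1118* replicate 2 or 3. Without *ecd1* replicate 2 or 3 they came down to 2367 or 3591. Of 6 cyclic nucleotide phosphodiesterases, 4 held a long changed junction (*dnc*, *Pde1c*, *Pde6* and *Pde8*), 3 rose and none fell, with a median log2 fold change of 0.27. *dnc* had 4869 to 5446 normalized counts in *w1118* and 6491 to 6841 in *ecd1* (0.37 ± 0.08 (SE), adjusted p = 0.0160, limma). *Pde8* rose by 0.54 and *Pde1c* by 0.35. None of the 3 passed without *ecd1* replicate 2 (adjusted p = 0.0681, 0.0545 and 0.133, limma), *dnc* did not pass without *w1118* replicate 3 (0.0597), and *Pde1c* did not pass without *w1118* replicate 2, 3 or *ecd1* replicate 3 either (0.0904, 0.108 and 0.115) or with the replicate block (0.0598).

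Of 48 genes of the sarcomere, the dystrophin complex and muscle attachment, 13 held a long changed junction. Of 47 tested, 19 rose and 1 fell, beside 16.0% and 19.1% of all genes, with a median log2 fold change of 0.31. With 1 library left out, 6 to 18 rose, the fewest without *ecd1* replicate 2. *Svil*, which encodes supervillin, an actin-binding protein, held 4 long junctions, of which that of 20514 bp had −0.162 and that of 16290 bp, from a nearer first exon, had 0.173. Its level was 14941 to 16011 normalized counts in *w1118* and 22993 to 26349 in *ecd1* (0.68 ± 0.09 (SE), adjusted p = 0.00479, limma). *tn*, the fly TRIM32, rose by 0.42. Muscle markers rose in 3 of 14 (1 without *w1118* replicate 2 or without any 1 *ecd1* replicate). They summed to 3311280 to 4219270 normalized counts in *w1118* and 4833290 to 5430140 in *ecd1*, with no overlap, and their part in these levels was not tested.

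Of 48 genes of synaptic release, glutamate handling and excitability, 10 were hosts, and of 47 tested 11 rose and 5 fell (4 and 2 without *ecd1* replicate 2), beside 16.0% and 19.1% of all genes. The 5 that fell also came down to 2 without *w1118* replicate 2 or 3 or *ecd1* replicate 1. Of 52 RNA-binding regulators of splicing and translation, 12 were hosts, among them *Adar*, *bol*, *orb2*, *mbl*, *Sxl*, *Imp* and *Rbfox1*, and of 50 tested 4 rose and 7 fell (1 and 3 without *ecd1* replicate 2), both below the shares of all genes. The 4 that rose also came down to 1 without *w1118* replicate 3. The junction listed under *orb2* is that of *CG43783*, as given above. *barc* held junctions of 7294 and 7309 bp at 0.204 and −0.204, with 5′ splice sites 15 bases apart, and had 2946 to 3081 normalized counts in *w1118* and 3329 to 3478 in *ecd1* (adjusted p = 0.149, limma). Of 26 genes of glycosaminoglycan synthesis and sulfation, 4 were hosts (*sfl*, *GlcAT-P*, *GlcAT-S* and *Papss*), and of 23 tested 3 rose and none fell (1 rose without *ecd1* replicate 2).

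Of 42 genes of the cytoskeleton, microtubules and nuclear positioning, 13 were hosts, and of 41 tested 4 rose and 6 fell (1 and 2 without *ecd1* replicate 2), beside 16.0% and 19.1% of all genes. The 4 that rose also came down to 1 without *w1118* replicate 2 or 3. *toc* fell by 0.51 (adjusted p = 0.0119, limma, and 0.0508 without *ecd1* replicate 2). Of 62 growth factor ligands, receptors and signal kinases, 10 were listed as hosts, *raptor* among them by an intron of *Mipp2*, and of 60 tested 11 rose and 4 fell (3 and 1 without *ecd1* replicate 2, and 7 rose with the replicate block), a higher share near that of all genes. Both lipophorin receptor genes, *LpR1* and *LpR2*, were hosts in a list of 15 of which 2 rose (1 without *w1118* replicate 2 or *ecd1* replicate 2). Of 31 cell cycle regulators 1 was a host, *CycE*, and 3 rose and 8 fell (1 and 0 without *ecd1* replicate 2, and 1 rose with the replicate block). The 3 that rose also came down to 1 without *w1118* replicate 2 or 3 or *ecd1* replicate 3. Of 32 nuclear receptors, genes of ecdysone synthesis and early genes 1 was a host, *shd*, the hydroxylase that makes 20-hydroxyecdysone, and of 28 tested 1 rose and 4 fell (0 and 3 without *ecd1* replicate 2, and 2 rose with the replicate block). The 1 that rose was also lost without *ecd1* replicate 3. None of the 11 Y-linked fertility genes was a host, and the 6 tested all fell (4 without *w1118* replicate 1). Their levels were low, with sums of 277 to 488 normalized counts in *w1118* and 38.2 to 78.5 in *ecd1*. Of the remaining marker lists, 2 of 9 midgut genes fell and none rose, while 1 rose with the replicate block. None of 7 fat body genes passed limma, where 3 had an unadjusted p below 0.05 and the median log2 fold change was −2.84. With the replicate block 2 of them were lower, whereas 1 was higher with edgeR and 1 with DESeq2. None of 7 salivary gland glue genes passed limma, 0 with an unadjusted p below 0.05, while 1 passed with edgeR and 0 with DESeq2. *w1118* replicate 1 stood apart in these genes, with 233485 normalized counts of *Sgs3*, a glue protein, against 59.0 and 39.3 in the other *w1118* samples and 42.8 to 124 in *ecd1*.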

How the data were processed

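Total RNA of whole larvae, 8 per sample, was sequenced in 3 *w1118* and 3 *ecd1* samples. Reads were aligned by the authors to dm6 (BDGP6) with TopHat2 2.0.10 and assigned to genes with featureCounts 1.6.4. The gene table they deposited holds a signal for 17606 genes, the count scaled by the DESeq2 size factor of the sample. The values above 0 were whole multiples of 1 read in 100% of cases (within 0.05), which gave 74581798 to 118102006 reads per sample. The deposited splicing table gives deltaPSI, a score from LeafCutter 0.2.8, and an adjusted p-value per cluster. The deposited sequencing report gives the insert size and the fraction of reads on 1 strand. Deposited fold changes and enrichments of the authors were not used, and all per-sample columns could be assigned.

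Junctions were matched to introns of the Ensembl release 115 annotation of the same build, and structures were read from shared splice sites. Coordinates are printed as deposited, as the last base of one exon and the first base of the next, counted from 1. Sequences were not analysed here. Gene levels were tested with limma 3.58.1 with a trend (R 4.3.3) on log2(normalized count + 1), for 12930 genes with a mean of at least 10, two-sided, with Benjamini-Hochberg adjustment over all of them. As normalized values are not raw counts, the recovered reads were tested with edgeR 4.0.16 and with DESeq2 1.42.0 only as alternatives.

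The members, lists and rule for named genes were chosen with earlier results of these data known. The rule named the 10 highest and 10 lowest deltaPSI, the 5 longest introns, the 3 on each side of the limit, every skipped exon, exons of at most 60 bases, hosts of at least 4 long junctions, the hosts with the 5 highest and 5 lowest log2 fold changes at an adjusted p below 0.05 and a mean of at least 50, and up to 4 hosts per list. *CG43783*, *Mipp2*, *CG1902*, *CG40472* and hosts listed without values were named after their values were seen. A junction named by the rule just outside the limit is not reported here. Samples with the same replicate number deviated together from their group means (correlations 0.209, 0.232 and 0.225, against −0.274 to 0.0541 for other pairs). This pairing comes from the values, since the labels do not say what the numbers stand for, and the block was an alternative.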

Additional observations from a re-analysis of the deposited data

How the results depend on the processing

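The number of long junctions was 340, and 218 at a limit of 5 kb or 112 at an absolute deltaPSI above 0.2. The share higher in *ecd1*, 52.1%, became 61.1% (102 of 167 genes) with 1 junction per gene, the one with the largest change, after leaving out 36 genes whose largest values tied with opposite signs. This handling of ties was chosen after the values were seen, and the share would be lower with the tied genes counted as lower. No long junction (0) equalled an annotated intron when the coordinates were read in the other 2 ways, and 89.1% did as exon ends. Leaving out 1 library at a time gave 16 to 37 higher and 12 to 32 lower host genes, and over the 11 function lists 18 to 70 calls higher and 17 to 46 lower, against 61 and 41 with all 6 samples. Over all genes the same settings gave 2367 to 5157 calls, against 4538 with all 6 samples. With the replicate block 35 host genes were higher and 30 lower. With the block *CG31145* (adjusted p = 0.0573, limma), *Pde1c* (0.0598) and *Pkn* (0.0529) no longer passed the test, and no other call among the 61 named hosts changed. Of 28 named hosts that passed, all 28 also passed with edgeR and with DESeq2.

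Among named hosts that did not pass the test, 6 changed direction under some alternative. *CG30015* had a log2 fold change of −0.03 that was 0.019 with edgeR and −0.15 to 0.15 with 1 library left out. *CG40178* had −0.02, which was 0.0079 after TMM scaling and −0.23 to 0.12 with 1 library left out. The same range was −0.055 to 0.15 for *CG42390*, −0.32 to 0.053 for *Papss*, −0.032 to 0.21 for *cnn* and −0.0081 to 0.10 for *sfl*. Splicing could not be recomputed under other settings, since the table holds no reads per sample, and junctions below its limits were not analysed here.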
